A study of Homo sapiens with 10 samples.

Results

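ATF3, EGR1, KLF6, and IER3 are genes that cells switch on within minutes to hours of a growth factor, a cytokine, or a stress, and the target sites of 5 transcription factors around them are described here. The sites were taken by position alone, as every peak with its summit on chr1:212700000-212820000 (ATF3), chr5:137770000-137840000 (EGR1), chr10:3770000-3900000 (KLF6), or chr6:30680000-30740000 (IER3) in hg19 coordinates. These 4 windows of 120, 70, 130, and 60 kb hold 547 of the 879550 peaks on chromosomes 1 to 22 and X, with 112 around ATF3, 58 around EGR1, 262 around KLF6, and 115 around IER3. The data are 10 ChIP-seq peak lists from MCF10A-ER-Src cells, a human breast epithelial line in which the v-Src oncoprotein is joined to the hormone-responsive part of the estrogen receptor and is switched on by tamoxifen. FOS, JUN, JUNB, NFKB1, and STAT3 were each mapped in non-transformed cells and in cells transformed by 12 h of 1 μM 4-hydroxy-tamoxifen. Library names inside the lists give 36 h in ethanol for the non-transformed cells, so treatment and time in culture cannot be told apart, and all 10 libraries carry the ER-Src fusion. There is 1 library per protein and state, so no difference between the states has a replicate check and no p-value is given for any. The intervals below are 95% intervals for counting error only.

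FOS, JUN, and JUNB are subunits of AP-1, a dimer that binds a short palindrome and relays growth and stress signals. NFKB1 is a DNA-binding subunit of the classical NF-κB dimer, and STAT3 is activated by cytokines of the IL-6 family. ATF3 encodes a leucine zipper protein of the ATF/CREB family that is induced by many stresses and can pair with JUN proteins. EGR1 and KLF6 encode zinc finger transcription factors, and EGR1 is a classical serum response gene. IER3 encodes a small protein that modulates cell survival and is a known target of NF-κB.

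The RefSeq promoter table, which is on the GRCh38.p14 build, matched 3 of the 4 genes (ATF3 with 2 entries, EGR1, and KLF6), and IER3 was not matched. The EGR1 and KLF6 sequences are shown because these genes have the fewest and the most peaks in their windows, as the 250 bases before the annotated start, 5′ to 3′ on the strand of the gene. EGR1 is at chr5:138465229-138465478 (plus strand) and KLF6 at chr10:3785210-3785459 (minus strand), and capitals mark motif matches.
EGR1 promoter: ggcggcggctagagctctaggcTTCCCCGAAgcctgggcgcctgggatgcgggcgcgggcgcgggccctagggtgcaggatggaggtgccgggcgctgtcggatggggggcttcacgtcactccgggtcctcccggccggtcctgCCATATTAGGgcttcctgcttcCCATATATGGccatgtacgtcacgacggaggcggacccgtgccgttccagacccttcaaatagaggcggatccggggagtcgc
KLF6 promoter: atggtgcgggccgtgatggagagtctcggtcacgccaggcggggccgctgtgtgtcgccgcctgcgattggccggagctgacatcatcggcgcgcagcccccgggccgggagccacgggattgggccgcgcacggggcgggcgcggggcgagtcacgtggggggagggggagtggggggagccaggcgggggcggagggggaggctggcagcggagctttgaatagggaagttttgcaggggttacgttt
The search covered both strands for the AP-1 motif TGANTCA, the cyclic AMP response element TGACGTCA, the STAT motif TTCNNNGAA, the κB motif, and the CArG box bound by serum response factor. EGR1 holds 1 STAT motif, TTCCCCGAA, from 228 to 220 bases before the start, and 2 CArG boxes, CCATATTAGG and CCATATATGG, which begin 105 and 83 bases before it. The matches do not overlap each other. None of the motifs was found in the KLF6 sequence or in the 2 ATF3 entries, at chr1:212565157-212565406 and chr1:212614768-212615017. Other starts of these genes and bases further away were not searched, so these results do not show that their promoters lack the motifs. Among 35116 promoters of the same length, 6.57% hold the AP-1 motif, 1.65% the cyclic AMP response element, 6.57% the STAT motif, 9.96% the κB motif, and 1.16% a CArG box. The peak lists use hg19, so no peak is placed on these bases, on an exon, or at a distance from a start, and sites are named by window and order along the chromosome (KLF6-1 has the lowest coordinate).

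More peaks were listed in transformed than in non-transformed cells for each protein over the 4 windows together. FOS peaks numbered 59 in non-transformed and 75 in transformed cells, JUN peaks 68 and 82, and JUNB peaks 35 and 50. For NFKB1 there were 16 and 59 peaks, and for STAT3 41 and 62. The whole lists grew too: the ratio of peak numbers between states was 1.27 in the windows and 1.37 over the list for FOS, 1.21 and 1.56 for JUN, 1.43 and 1.34 for JUNB, 3.69 and 5.57 for NFKB1, and 1.51 and 1.87 for STAT3. Only for JUNB was the growth in these windows above that of its list. Depth differed between the libraries too. In the NFKB1 library of non-transformed cells 4837474 reads passed the authors' filter, with 9674390 in its partner, and the other 8 libraries had 8967267 to 22082403. The STAT3 library of transformed cells had fewer filtered reads than its partner (8967267 against 10929003). The part of depth in these counts was not tested.

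**Figure D1:**
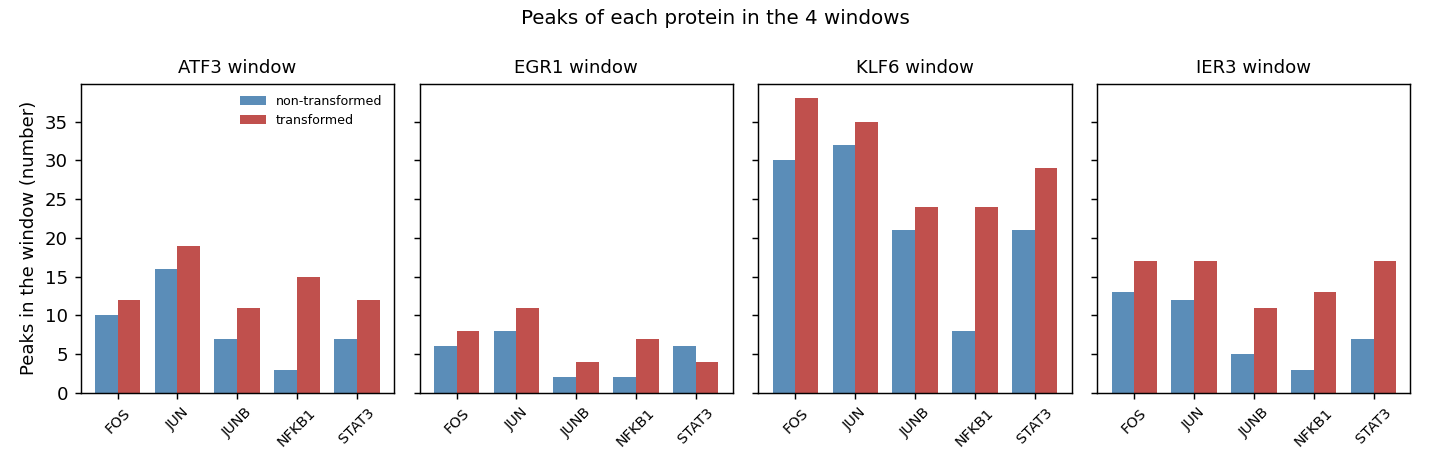
Number of peaks (vertical axis) of each protein (horizontal axis) in the ATF3, EGR1, KLF6, and IER3 windows, with 1 blue bar for the non-transformed and 1 red bar for the transformed library. KLF6 has the tallest bars, up to 38 for FOS, and STAT3 around EGR1 is the only pair in which the red bar, at 4, is below the blue bar, at 6.

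KLF6 had the most peaks, 112 in non-transformed and 150 in transformed cells, or 86.2 and 115 per 100 kb. Each of the 5 proteins was crowded there in both states, with 30 and 38 FOS peaks, 32 and 35 JUN peaks, 21 and 24 JUNB peaks, 8 and 24 NFKB1 peaks, and 21 and 29 STAT3 peaks in non-transformed and transformed cells. To read these numbers, the chromosomes were divided into stretches of the same length as the window. The share of 130 kb stretches with at least as many peaks was 0.0428% in both states for FOS, 0.0343% and 0.0514% for JUN, 0.0386% and 0.111% for JUNB, 0.163% and 0.137% for NFKB1, and 0.0386% and 0.03% for STAT3. As few as 7 of 23345 stretches hold as many STAT3 peaks of transformed cells.

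Per length, the IER3 window was less dense than that of KLF6 in non-transformed cells (66.7 peaks per 100 kb over the 5 lists) and denser in transformed cells (125). Its 60 kb held 13 FOS peaks in non-transformed and 17 in transformed cells, 12 and 17 JUN peaks, 5 and 11 JUNB peaks, 3 and 13 NFKB1 peaks, and 7 and 17 STAT3 peaks. At least as many were found in 0.453% and 0.441% of 60 kb stretches for FOS, 0.265% and 0.154% for JUN, 6.5% and 0.625% for JUNB, 1.61% and 0.267% for NFKB1, and 0.769% and 0.0712% for STAT3. The place of the IER3 window among stretches of its length was thus higher in transformed cells for each protein, least so for FOS.

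Around ATF3 the window was crowded with JUN rather than FOS. It held 10 and 12 FOS peaks, which 13.1% and 16.6% of 120 kb stretches reach, but 16 and 19 JUN peaks, which 0.803% and 1.39% reach. For JUNB there were 7 and 11 peaks (11.2% and 6.03% of stretches), for NFKB1 3 and 15 (4.97% and 1.26%), and for STAT3 7 and 12 (4.25% and 3.93%).

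EGR1 had the fewest peaks. There were 6 and 8 FOS peaks in its 70 kb (15.1% and 14.5% of stretches have as many), 2 and 4 JUNB peaks (43.8% and 25%), and 8 and 11 JUN peaks (2.96% and 2.8%). NFKB1 had 2 and 7 peaks (6.12% and 4.69%). STAT3 went the other way, with 6 peaks in non-transformed and 4 in transformed cells (2.06% and 18.4% of stretches). These are few peaks, and the STAT3 library of non-transformed cells had more filtered reads. The STAT3 summits found in both states, at EGR1-3 and EGR1-8, had pileup ratios with intervals that hold 1 (0.531 to 1.50 and 0.237 to 1.96).

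When windows of 150 bp on each side of the summits were joined over all lists, the 547 peaks formed 125 sites, 55 around KLF6, 32 around ATF3, 21 around IER3, and 17 around EGR1. In transformed cells 33 sites (26.4%) had a peak of all 5 proteins, against 14.8% of all 248897 sites of the series. In non-transformed cells 12 sites had all 5 (9.6%, against 2.41%). Of the 33, 19 were around KLF6, 7 around IER3, 6 around ATF3, and 1 around EGR1. A peak in all 10 lists was found at 11 sites (8.8%, against 2.23% of all sites), 6 around KLF6, 3 around ATF3, 2 around IER3, and 0 around EGR1. A peak in at least 9 lists was found at 23 sites (18.4%, against 7.44%), and 39 sites (31.2%, against 38.7%) had a peak in 1 list. Both states had a peak at 78 sites (62.4%, against 50.5%), while 33 (26.4%, against 34.6%) had peaks in transformed and 14 (11.2%, against 15%) in non-transformed cells alone. Sites of 2 or more proteins in transformed cells alone numbered 7 (5.6%, against 9.88%). Neighbouring windows and dense peaks make joined sites longer and fuller, so these shares depend on peak density. Where 9 or 10 lists met with 1 summit each, which was so at 21 sites, all their summits lay within 35 to 403 bp, with a median of 92 bp.

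**Figure D2:**
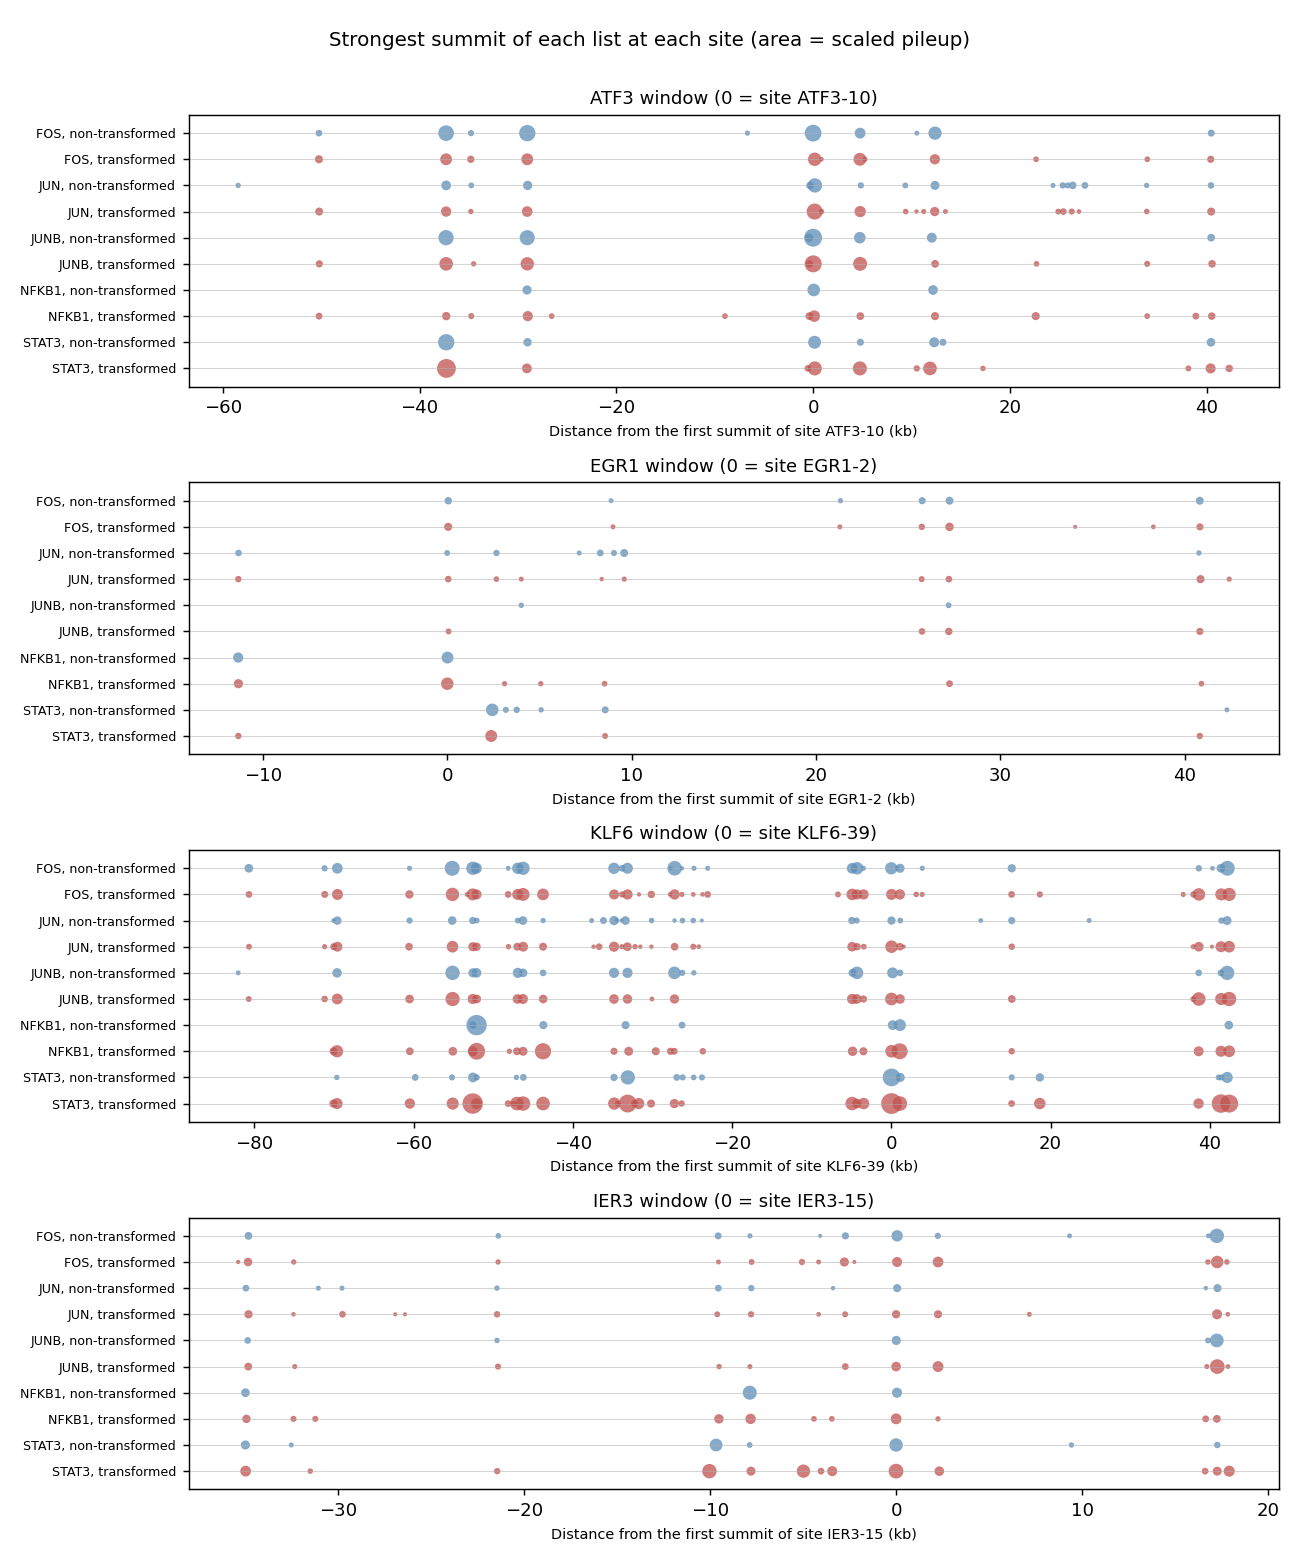
Summit of the strongest peak of each list (rows, blue for non-transformed and red for transformed) at each site of the 4 windows, by distance in kb from the first summit of sites ATF3-10, EGR1-2, KLF6-39, and IER3-15. The area of a point is the scaled pileup (reads over the summit per 1000000 filtered reads), and columns of points in all 10 rows are seen around KLF6, ATF3, and IER3 and are missing around EGR1.

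FOS, JUN, and JUNB met at 47 sites in transformed cells (37.6%, against 30.2% of all sites) and at 28 in non-transformed cells (22.4%, against 16.1%). STAT3 was found at 45.6% of sites in transformed and 32% in non-transformed cells, against 31% and 16.8% of all sites. It lay with AP-1 at 51 of its 57 sites in transformed cells and at 32 of its 40 sites in non-transformed cells. Over the series STAT3 lay with AP-1 at 68087 of 77271 sites in transformed and 33759 of 41806 in non-transformed cells. The shares of STAT3 sites with AP-1 in the windows were close to those. As shares of all sites, STAT3 with AP-1 made up 40.8% against 27.4% for the series in transformed, and 25.6% against 13.6% in non-transformed cells. Shares of all sites rise with the share of STAT3 sites. NFKB1 was found at 44.8% of sites in transformed cells, against 28.6%. It lay with AP-1 at 49 of its 56 sites, close to the share over the series, 61318 of 71098. As shares of all sites, NFKB1 with AP-1 made up 39.2% against 24.6% for the series, which likewise rises with the share of NFKB1 sites. JUN was found at 78 sites (62.4%) in transformed and 63 (50.4%) in non-transformed cells, against 49.5% and 31.8% of all sites. Over the series JUN lacked FOS and JUNB at 24454 of its 123134 sites in transformed and 22859 of 79046 in non-transformed cells. In the windows JUN was found without FOS or JUNB at 25 sites (20%) in transformed and 23 (18.4%) in non-transformed cells, against 9.82% and 9.18% of all sites. The ATF3 window held 8 of these in each state and the EGR1 window 6 and 5.

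A run of such sites, singled out after its values were seen, lies in the ATF3 window at chr1:212793925-212797467. It has 7 neighbouring sites (ATF3-21 to ATF3-27), each with a JUN peak in 1 or both states and with 0 peaks of the other 4 proteins. The 9 JUN pileups there were low, at 0.488 to 1.26 per 1000000 filtered reads (scaled pileup). Another cluster, of 8 sites (EGR1-3 to EGR1-10, chr5:137799409-137806926), was also singled out after its values were seen. It has JUN at 6 sites, STAT3 at 5, and NFKB1 at 3, but FOS and JUNB at 1 site each. Among JUN and STAT3 there, only STAT3 at EGR1-3 had a scaled pileup above 1.39.

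Most STAT3 and NFKB1 peaks of transformed cells in these windows had no counterpart in non-transformed cells, but this is so for their whole lists. Peaks with no overlapping peak of the same protein in non-transformed cells made up 44 of 59 for NFKB1 (74.6%, against 83.8% of the list), 36 of 62 for STAT3 (58.1%, against 61.6%), and 32 of 82 for JUN (39%, against 49.3%). For JUNB they were 21 of 50 (42%, against 44.8%) and for FOS 22 of 75 (29.3%, against 39.3%). All 5 shares were below those of the lists. In the other direction, 15 of the 41 STAT3 peaks of non-transformed cells had no counterpart in transformed cells (36.6%, against 29.1%), as did 16 of 68 JUN peaks (23.5%, against 21%), 5 of 59 FOS peaks (8.47%, against 17%), 6 of 35 JUNB peaks (17.1%, against 25.6%), and 2 of 16 NFKB1 peaks (12.5%, against 10.7%). Around EGR1 this was true of 4 of the 6 STAT3 peaks. Gained STAT3 peaks mostly lay where AP-1 was already listed, as over the whole list. Of the 36, 26 overlapped a FOS, JUN, or JUNB peak of non-transformed cells (72.2%, against 62.8% of all gained STAT3 peaks). The same held for 35 of the 44 gained NFKB1 peaks (79.5%, against 73.5%). AP-1 peaks of transformed cells were met by 28 of the gained STAT3 peaks (77.8%, against 83.2%) and 37 of the gained NFKB1 peaks (84.1%, against 84.6%). AP-1 peaks are denser in these windows than over the lists, and the shares were not adjusted for this.

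Strength was measured as the pileup at the summit, the number of extended reads over it, per 1000000 reads that passed the filter, called scaled pileup. Of the 547 peaks, 103 were among the most significant 10% of their list (18.8%, against 10% of all peaks), and 7 among the top 1% (1.28%, against 1%). The ATF3 window had 27 of its 112 peaks in the top 10%, KLF6 59 of 262, IER3 15 of 115, and EGR1 2 of 58. The read background that MACS estimated over 1000000 bp around ATF3 was 1.87 to 2.27 times the genome-wide background of the library in all 10 lists, and its part in the strength of the ATF3 peaks was not tested. Around KLF6 this ratio was 1.23 to 2.05, around EGR1 1.12 to 1.35, and around IER3 1 to 1.36.

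**Figure D3:**
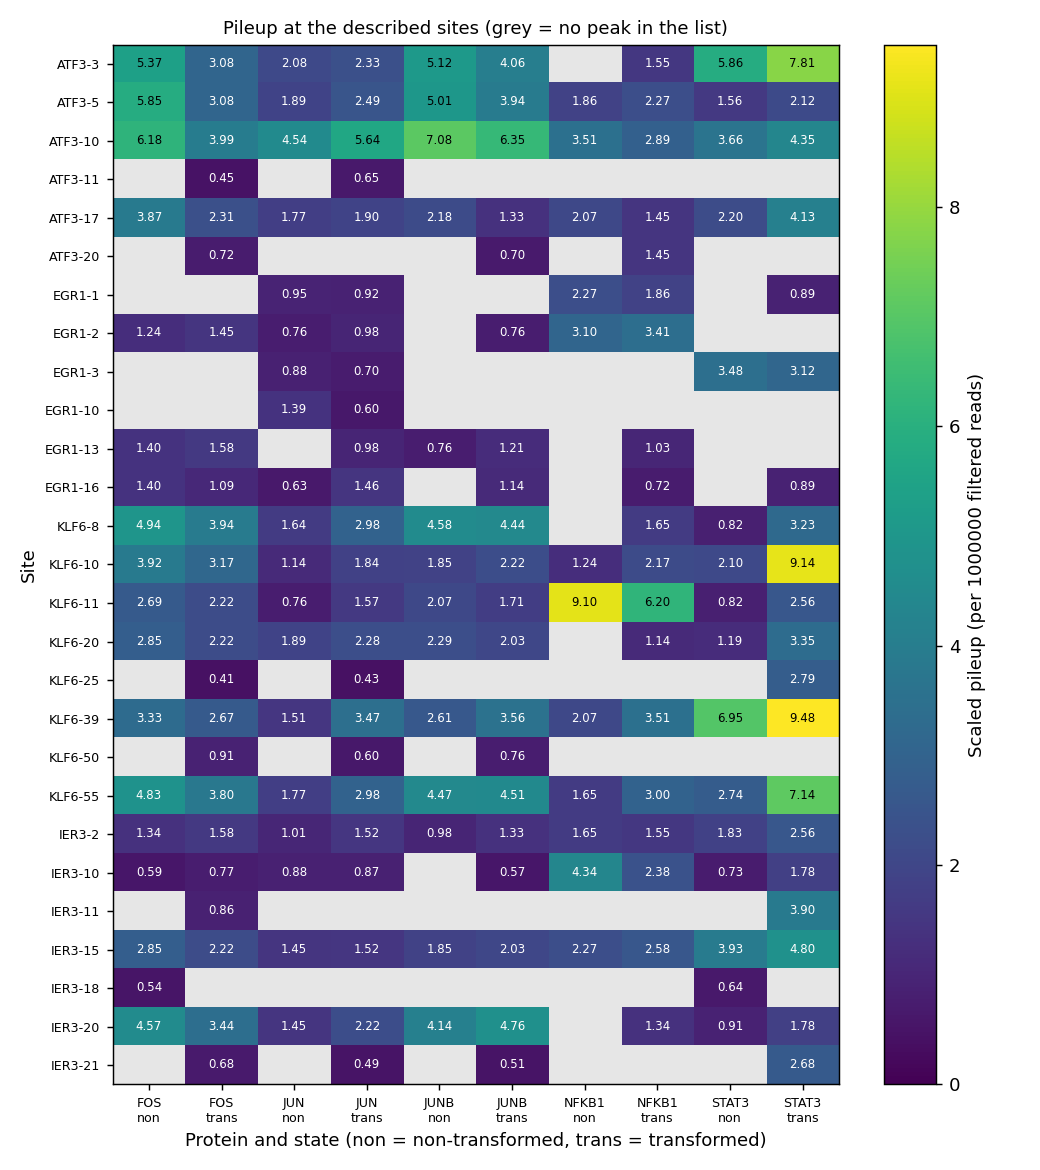
Scaled pileup (reads over the summit per 1000000 filtered reads; colour and printed value) at the sites described in the text (rows) in each of the 10 lists (columns), with grey where a list has no peak. The highest value is 9.48 for STAT3 at KLF6-39 in transformed cells, and the EGR1 rows are mostly grey or dark.

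The strongest site around ATF3 was ATF3-10 (chr1:212769542-212770025), where all 10 lists have a peak. JUN had a scaled pileup of 4.54 in non-transformed and 5.64 in transformed cells, a ratio of 1.24 (0.91 to 1.70). By significance this JUN peak is within the top 0.0687% and 0.0235% of its lists, the highest standing of any peak in the 4 windows. JUNB had 7.08 and 6.35 (ratio 0.897, 0.65 to 1.24), NFKB1 3.51 and 2.89 (0.824, 0.435 to 1.60), and STAT3 3.66 and 4.35 (1.19, 0.745 to 1.90). FOS alone differed beyond counting error, at 6.18 and 3.99 (0.645, 0.483 to 0.859), and its summit lay 163 bp away from that in non-transformed cells.

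FOS was lower in transformed cells at ATF3-10 and at 3 other ATF3 sites with high pileup, but not at all such sites of the window. At ATF3-3 (chr1:212732236-212732578) the scaled pileup of FOS was 5.37 in non-transformed and 3.08 in transformed cells (ratio 0.573, 0.415 to 0.788). At ATF3-5 (chr1:212740456-212740848) it was 5.85 and 3.08 (0.526, 0.383 to 0.719). ATF3-17 (chr1:212781421-212782239) had 3.87 and 2.31 (0.597, 0.409 to 0.867). JUN at these 3 sites had ratios of 1.12, 1.32, and 1.07, each with an interval that holds 1. STAT3 was strongest around ATF3 at ATF3-3, with 5.86 and 7.81 (1.33, 0.936 to 1.90). At ATF3-12, singled out after its values were seen, JUN and STAT3 were both higher in transformed cells, with 0.883 and 2.82 for JUN (3.19, 1.74 to 6.23) and 1.10 and 4.35 for STAT3 (3.96, 2.03 to 8.31). FOS at ATF3-12 had 2.58 and 3.67 (1.42, 0.984 to 2.08), and the summed scaled pileup of this site over the lists, 23.9, was close to that of ATF3-17, 23.2. Of the sites with peaks in transformed cells alone, ATF3-20 had 0.725 for FOS, 0.698 for JUNB, and 1.45 for NFKB1, and ATF3-11 had 0.453 for FOS and 0.650 for JUN.

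Around EGR1 the leading peaks belonged to NFKB1 and STAT3 and lay at different sites. NFKB1 was strongest at EGR1-2 (chr5:137797020-137797394), with a scaled pileup of 3.10 in non-transformed and 3.41 in transformed cells (ratio 1.10, 0.581 to 2.18). FOS at this site had 1.24 and 1.45, and JUN 0.757 and 0.975. STAT3 had no peak there. It was strongest at EGR1-3 (chr5:137799409-137799996), with 3.48 and 3.12 (0.898, 0.531 to 1.50), next to a JUN peak of 0.883 and 0.704. At EGR1-1 (chr5:137785683-137786002), the site with the lowest coordinate, NFKB1 had 2.27 and 1.86 and JUN 0.946 and 0.921.

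The scaled pileup of AP-1 was low throughout the EGR1 window. The strongest FOS peaks, at EGR1-13 (chr5:137824219-137824570), had scaled pileups of 1.40 and 1.58. The strongest JUNB peaks were at the same site, with 0.763 and 1.21, the only pair of JUNB peaks in this window. The strongest JUN peak of non-transformed cells was at EGR1-10 (chr5:137806621-137806926), with 1.39 against 0.596 in transformed cells (ratio 0.430, 0.188 to 0.924). That of transformed cells was at EGR1-16 (chr5:137837798-137838234), with 0.631 and 1.46 (2.32, 1.09 to 5.37). Both sites had a JUN peak in both states. Each was chosen as the maximum of 1 state, which by itself pushes its ratio away from 1, and the intervals do not allow for this. EGR1-16 is also the site of this window with all 5 proteins in transformed cells.

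Around KLF6, STAT3 had the most paired peaks at or above 2-fold of the 4 windows. All 15 STAT3 peaks that KLF6 has in both states had a higher scaled pileup in transformed cells, 10 of them by at least 2-fold (38.8% of all paired STAT3 peaks of the series reach this), with a median ratio of 2.81 against 1.69 for the list. Over the whole STAT3 list 82.9% of pairs were higher in transformed cells, and relative to the list median 11 of the 15 were above 1 and 4 below it. By fold enrichment (pileup over local background) the median was 2.15 against 1.54 for the list. The ratios at KLF6-30 and KLF6-46 were then 0.873 and 0.975, and the others stayed above 1. The STAT3 read background around KLF6 was 1.25 times the genome-wide one in non-transformed and 2.05 times in transformed cells, and its part was not tested. At KLF6-10 (chr10:3799752-3800087) STAT3 had scaled pileups of 2.10 and 9.14 (ratio 4.35, 2.71 to 7.23). FOS at KLF6-10 had 3.92 and 3.17 (0.809, 0.574 to 1.14) and JUNB 1.85 and 2.22 (1.20, 0.654 to 2.28). KLF6-8 (chr10:3797159-3797563) had 0.823 and 3.23 for STAT3 (3.93, 1.81 to 9.43), with JUNB at 4.58 and 4.44 and with the strongest FOS peaks of the window, at 4.94 and 3.94. At KLF6-20 (chr10:3817497-3817835) STAT3 had 1.19 and 3.35 (2.81, 1.42 to 5.87). The largest ratio in the 4 windows, 9.07 (4.50 to 20.7), was that of STAT3 at KLF6-54, singled out for it, with 0.823 and 7.47. JUN, JUNB, and FOS were also higher there, with ratios of 3.01 (1.63 to 5.90), 3.30 (1.61 to 7.63), and 1.93 (1.25 to 3.05).

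Neighbouring KLF6 sites differed in which protein led. KLF6-11 (chr10:3800215-3800571), next to KLF6-10, was the strongest NFKB1 site of the 4 windows in both states, with scaled pileups of 9.10 and 6.20 (ratio 0.682, 0.454 to 1.03). By fold enrichment, which damps values in shallow libraries, that ratio was 1.06. STAT3 at KLF6-11 had 0.823 and 2.56 (3.11, 1.39 to 7.65). KLF6-39 (chr10:3852326-3852800) was the strongest STAT3 site of the 4 windows in both states, with 6.95 and 9.48 (1.36, 0.989 to 1.88), and JUN there had 1.51 and 3.47 (2.29, 1.41 to 3.83). Of 2 sites singled out for their ratios, KLF6-16 had 1.45 and 5.79 for NFKB1 (4.00, 1.82 to 10.4), and KLF6-51 had 0.913 and 3.44 for FOS (3.77, 2.21 to 6.81) and 0.981 and 4.06 for JUNB (4.14, 2.05 to 9.47).

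At KLF6-55 (chr10:3894506-3895071) the summits themselves lay apart. In non-transformed cells the summits of JUN, STAT3, JUNB, and FOS were at positions 3894656, 3894666, 3894668, and 3894685, and that of NFKB1 at 3894869. In transformed cells all 5 were between 3894909 and 3894921. The summits of FOS, JUN, JUNB, and STAT3 were thus 230, 255, 241, and 255 bp apart between states. Paired summits 200 bp or more apart are 0.766% of FOS, 1.26% of JUN, 0.802% of JUNB, 1.47% of NFKB1, and 2.05% of STAT3 pairs in the whole lists. This site was singled out after its summits were seen. Its pileups compare different positions: STAT3 had 2.74 and 7.14 (2.60, 1.66 to 4.16), JUN 1.77 and 2.98 (1.69, 1.05 to 2.76), FOS 4.83 and 3.80 (0.787, 0.578 to 1.07), and JUNB 4.47 and 4.51 (1.01, 0.678 to 1.52). Sites of transformed cells alone included KLF6-25, with 2.79 for STAT3 beside 0.408 for FOS and 0.434 for JUN, and KLF6-50, with 0.906 for FOS, 0.596 for JUN, and 0.762 for JUNB.

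Around IER3 the NFKB1 and AP-1 peaks were strongest at different sites. NFKB1 of non-transformed cells was strongest at IER3-10 (chr6:30712276-30712680), with a scaled pileup of 4.34 against 2.38 in transformed cells (ratio 0.548, 0.29 to 1.04). FOS and JUN were low there, at 0.591 and 0.770 for FOS and 0.883 and 0.867 for JUN. FOS and JUNB were strongest at IER3-20 (chr6:30737384-30737722), with 4.57 and 3.44 for FOS (0.754, 0.546 to 1.04) and 4.14 and 4.76 for JUNB (1.15, 0.769 to 1.75), where NFKB1 had a peak in transformed cells alone, of 1.34.

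All 10 lists met at IER3-15 and IER3-2. At IER3-15 (chr6:30720144-30720503) STAT3 had scaled pileups of 3.93 and 4.80 (ratio 1.22, 0.78 to 1.90), NFKB1 2.27 and 2.58 (1.14, 0.539 to 2.56), FOS 2.85 and 2.22, JUN 1.45 and 1.52, and JUNB 1.85 and 2.03. None of the 5 proteins differed between states beyond counting error at this site. IER3-2 (chr6:30685173-30685640) was weaker, from 0.981 for JUNB to 1.83 for STAT3 in non-transformed and from 1.33 for JUNB to 2.56 for STAT3 in transformed cells. Both IER3 sites with peaks of 2 or more proteins in transformed cells alone were led by STAT3, with 3.90 at IER3-11 (chr6:30715084-30715467) beside 0.860 for FOS, and 2.68 at IER3-21 (chr6:30737924-30738351) beside 0.679 for FOS, 0.488 for JUN, and 0.508 for JUNB. The other 5 sites of transformed cells alone had 1 peak each, of FOS or JUN, at 0.362 to 0.542. IER3-18 had the opposite pattern, with 0.537 for FOS and 0.640 for STAT3 in non-transformed cells alone, and it is 1 of 125 sites (0.8%) with 2 or more proteins in that state and none in the other, against 0.925% of all sites.

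**Figure D4:**
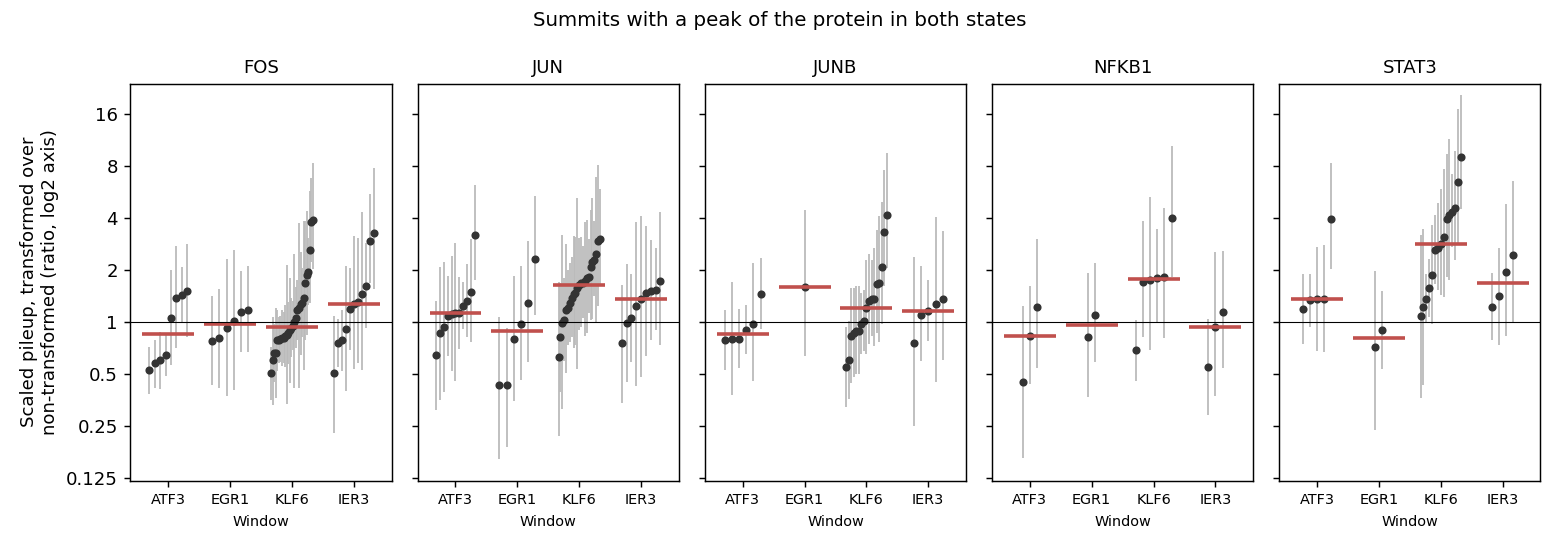
Scaled pileup in transformed over non-transformed cells (vertical log2 axis) for each of the 171 summits with a peak of the protein in both states, by protein (panels) and window (horizontal axis), with grey 95% intervals for counting error and a red line at the median. All 15 STAT3 points around KLF6 are above 1, and both STAT3 points around EGR1 are below 1 with intervals that hold 1.

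Over all 4 windows, the summits present in both states differed by protein. The median ratio was 0.996 for 53 FOS pairs (0.949 over the list), 1.32 for 49 JUN pairs (1.29), 1.10 for 29 JUNB pairs (0.964), 1.12 for 14 NFKB1 pairs (1.03), and 1.91 for 26 STAT3 pairs (1.69). STAT3 was at least 2-fold higher at 12 of 26 pairs (38.8% over the list) and JUN at 8 of 49 (14.8%). FOS was so at 5 of 53 (8.55%), JUNB at 3 of 29 (7.81%), and NFKB1 at 1 of 14 (9.3%). Scaled pileup was at least 2-fold lower at 2 JUN pairs (0.862% over the list), both around EGR1, and at 1 NFKB1 pair (6.15%). No FOS, JUNB, or STAT3 pair was (6.01%, 7.05%, and 1.03% over the lists). Since STAT3 was higher over its whole list, the median of the 26 pairs relative to that list was 1.13, and the fragment length that MACS used, 150 bp in non-transformed and 119 bp in transformed cells, enters the pileup. Relative to the list, the median STAT3 ratio was 1.67 around KLF6, 0.993 around IER3, 0.802 around ATF3, and 0.477 around EGR1. The EGR1 value rests on 2 pairs, 0.711 and 0.898 before that scaling, and the difference between windows was not tested.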

How the data were processed

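Binding of STAT3, NFKB1, and the AP-1 subunits FOS, JUN, and JUNB was mapped by ChIP-seq in MCF10A-ER-Src cells, with 1 library per protein and state, and samples were grouped by protein and transformation status from their labels. The submitters' processing notes name hg19, Bowtie, and MACS2. Per the file headers, the authors called peaks in each library with MACS 2.0.10.20131216 on 36 bp reads and with no control library. Settings were a genome size of 2700000000 bp, a regional background of 1000000 bp, 1 read kept per position, and a q-value limit of 0.05. The deposited pileup is a signal (extended reads that cover the summit), which the authors did not scale by depth. The deposited significance is −log10 of the p-value and q-value, and the fold enrichment deposited beside it is the ratio of pileup to local background after adding 1 to both.

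From these, peaks on chromosomes 1 to 22 and X were taken as windows of 150 bp to either side of the summit, and windows that overlap by at least 1 bp were joined into sites. Scaled pileup is pileup per 1000000 filtered reads of the library (4837474 to 22082403 reads). For a protein, each summit of transformed cells was paired with the nearest of non-transformed cells whose window overlaps. Ratios have exact Clopper-Pearson intervals of the share of reads from the transformed library, which leave out culture, antibody, and library variation. The overlap and interval code was tested on simulated data. Where a site has several summits of a list, the strongest is given. The sites given with values are, in each window, the 4 in the most lists (ties by summed scaled pileup), that of the strongest peak of each list, and up to 2 found in at least 2 lists of 1 state and in no list of the other, and any others are named as singled out. The members and lists were chosen with earlier results of these data known. Alternatives were a stricter q-value, a pileup minimum, windows of 50 bp, whole peaks, no joining, and 3 other scalings, of which the genome-wide background was added after seeing the data. Computations used Python 3.11.15, numpy 2.4.6, pandas 2.3.3, scipy 1.17.1, and matplotlib 3.10.9. The reference at hand is GRCh38, so gene annotation and peak sequences were not used here, and no other immediate-early gene was counted. RefSeq's order of protein-coding genes puts ATF3 between NENF and GARIN4, EGR1 between REEP2 and ETF1, and IER3 between FLOT1 and DDR1.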

Additional observations from a re-analysis of the deposited data

How the results depend on the processing

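No paired analysis was possible because there is 1 library per protein and state, and for the same reason no replicate could be left out. Peak and site numbers depended on the threshold. With only peaks at or above the median −log10 q-value of all lists (9.41), 70 sites were left, 3 of them in all 10 lists, 22 of them with all 5 proteins in transformed cells, and there were 22 gained NFKB1 peaks. The non-transformed lists then held 38 FOS, 28 JUN, 21 JUNB, 8 NFKB1, and 16 STAT3 peaks, and the transformed lists 44 JUN, 30 NFKB1, and 40 STAT3 peaks. With a scaled pileup of at least 2, there were 40 sites, 7 with all 5 proteins in transformed cells and 1 in all 10 lists. There were then 6 gained FOS, 12 JUN, 9 JUNB, and 7 NFKB1 peaks. Under this minimum the non-transformed and transformed lists held 20 and 26 FOS, 2 and 14 JUN, 15 and 20 JUNB, 9 and 14 NFKB1, and 10 and 34 STAT3 peaks. Windows of 50 bp gave 7 sites in all 10 lists. Under both thresholds more peaks were listed in transformed cells for each protein. By fold enrichment the median ratio was 1.48 for JUNB (1.27 over the list) and 1.79 for NFKB1 (1.64 over the list). Relative to all paired sites the median was 1.02 for JUN and 1.13 for STAT3. The last scaling puts STAT3 below 1 at several described sites, at 0.790 for ATF3-3, 0.704 for ATF3-10, 0.722 for IER3-15, and 0.808 for KLF6-39, and gives 2.57 for KLF6-10 and 1.54 for KLF6-55. The cause was not tested. No called ratio changed direction, and the other values of these results moved by at most 1.5 times or by less than their intervals. The NFKB1 library of non-transformed cells has the fewest filtered reads, and a pileup of 6 reads in it is a scaled pileup of 1.24. Absence of a peak from a list is not absence of binding.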
